A study of Mus musculus with 18 samples.

Results

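The response of the mouse midbrain to the neurotoxin MPTP was read from 6 of the 18 arrays of the study, 3 from MPTP-treated and 3 from saline-treated animals, chosen by their labels. The mice were C57BL/6J males aged 14 weeks and were assigned at random to a treatment. The MPTP group received 30 mg/kg MPTP by intraperitoneal injection, counted as free base, once daily for 5 days. The saline group received saline by the same route, and tissue from both groups was taken 4 days after the final injection. Frontal cortex and striatum were hybridised in the same way and serve here to show where the midbrain differed. All 18 arrays also enter the estimate of spread behind each p-value, the choice of probe set per gene and the choice of genes tested. The labels call the 3 samples of a group biological replicates without naming the animals, and the whole dissected midbrain was used, so that a value is an average over every cell type in the piece. The p-values therefore measure the spread between samples within a group, pooled over the regions. Values are log2 expression per probe set, and a difference is the mean of the MPTP arrays minus the mean of the saline arrays on that scale.

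MPTP crosses into the brain, where monoamine oxidase B, found largely in glia, converts it to MPP+. The dopamine transporter carries MPP+ into dopaminergic neurons, where it blocks complex I of the mitochondrial respiratory chain. The midbrain holds the cell bodies of these neurons in the substantia nigra and ventral tegmental area, among many more GABAergic and glutamatergic neurons, oligodendrocytes and other glia. Microglia and astrocytes respond to such injury by changing their transcription, and acute-phase proteins are made in response to inflammatory cytokines in brain vessels and glia as well as in the liver.

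The midbrain identity of the samples was checked against marker genes. The dopamine transporter gene Slc6a3 averaged 9.03 in MPTP and 9.40 in saline midbrain, and lay between 3.78 and 4.01 in the group means of the other regions. The forebrain genes Gpr6 and Neurod6 averaged 3.29 and 3.11 in MPTP midbrain and 3.20 and 3.04 in saline midbrain, below the filter value of 5.20 under which a level is not shown to be above background. The midbrain homeobox gene En1, a further marker, was also below it, at 3.52 in MPTP and 3.42 in saline midbrain. The 3 MPTP arrays correlated with each other at 0.997 over all probe sets, and the 3 saline arrays at 0.991 to 0.9945. Saline replicate 2 had the narrowest distribution, with an interquartile range of 3.37 against 3.54 to 3.61 on the other 5 midbrain arrays. Saline replicate 1 had the highest mean level of genes of thalamic and midbrain glutamatergic neurons, 8.76 against 7.62 to 7.93 elsewhere. Saline replicate 3 had the highest mean level of cerebellar neuron genes, 7.86 against 7.03 to 7.18. A control for RNA length, the 3' minus the 5' probe set of pyruvate carboxylase, read 2.20, 2.14 and 2.03 on the MPTP arrays and 1.69, 1.89 and 1.85 on the saline arrays, without overlap, while the same controls for Gapdh, actin and the transferrin receptor overlapped. The part of these array differences in the results below was not tested.

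The genes that rose in MPTP midbrain included 4 of 18 acute-phase, 3 of 21 interferon response, 3 of 25 microglial and 3 of 21 astrocytic genes, and those that fell included 4 of 23 genes of cholesterol synthesis and uptake and 3 of 29 oligodendrocyte and myelin genes. Most members of each list were not called. Other lists had like shares, with rises of 3 of 24 endothelial, 3 of 22 antioxidant and 2 of 10 antigen processing genes. Without saline replicate 2 the rises were 2 acute-phase, 1 interferon response, 0 microglial and 0 astrocytic genes. The falls were then 4 cholesterol and 1 oligodendrocyte genes. At a threshold of 0.05 on the adjusted p from limma (Benjamini-Hochberg), 298 of 11710 genes (2.54%) passed, and such genes are termed called. Of them 253 (2.16%) rose and 45 (0.384%) fell. Most differences were small. The median rise was 0.48, with 139 of the 253 under 0.5 and 5 over 1, and the median fall was -0.48, with 27 of 45 smaller than 0.5 and 2 larger than 1. The MPTP and saline arrays did not overlap for 246 of the rises and 42 of the falls, where over all genes tested 11.2% lay above and 5.18% below in every MPTP array. The same arrays chose the called genes, so their separation follows largely from the selection. The median difference over all genes was 0.03.

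The count rested on single arrays. Without MPTP replicate 3 only 12 genes were called, and without saline replicate 2 the count was 119, with 50 rises and 69 falls, so that the excess of rises was lost. Without saline replicate 3 it was 87, without MPTP replicate 1 it was 137, without MPTP replicate 2 it was 247, and without saline replicate 1 it was 957. Saline replicate 2 was the lowest of the 6 arrays for 188 of the 253 rises, and saline replicate 1 was the saline array nearest to the MPTP arrays for 203. On average the called rises stood 0.23, 0.19 and 0.36 above the mean of the 6 arrays in MPTP replicates 1, 2 and 3, and 0.10, 0.39 and 0.28 below it in saline replicates 1, 2 and 3. Of 93 called genes selected for naming, 12 kept their call with each midbrain array left out in turn, and they were the same 12 genes that were called without MPTP replicate 3. These were the rises of Fbxo11, Glrb, Tspyl1, Ube2e1, Ebf3, Ifitm1, Ivns1abp, Luc7l2, Mthfd2l, Pcdh7 and Ranbp9 and the fall of Mlip. Every other called gene named here lost its call without MPTP replicate 3 and, for most, without other arrays too.

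**Figure D1:**
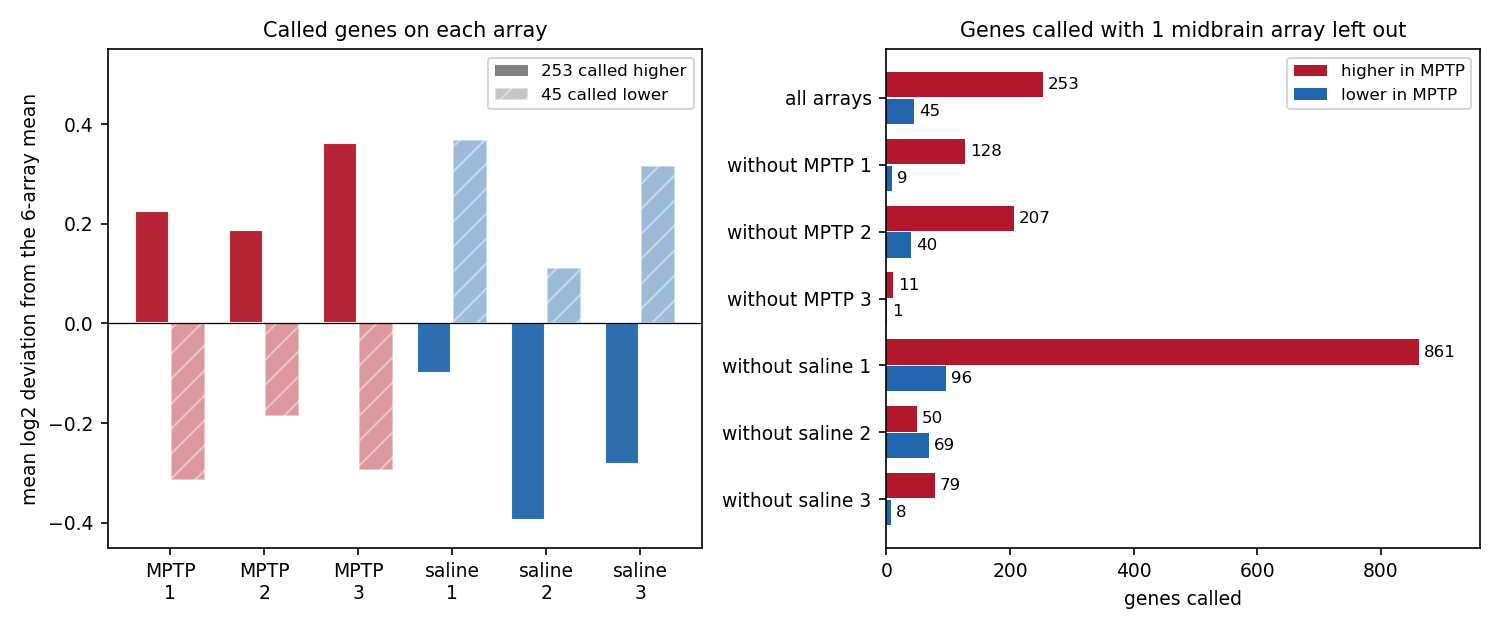
Called genes by midbrain array. The left panel plots, for each of the 3 MPTP and 3 saline arrays, the mean deviation in log2 units from the 6-array mean over the 253 genes called higher (solid bars) and the 45 called lower (hatched bars); the right panel plots the number of genes called higher and lower in MPTP midbrain with all arrays and with 1 midbrain array left out. The rises stand highest in MPTP replicate 3 and lowest in saline replicate 2, and the count runs from 12 genes without MPTP replicate 3 to 957 without saline replicate 1.

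Limma called no gene of the dopaminergic neuron list, of which 2 were higher and 3 lower at an unadjusted p under 0.05. At that level 1416 of all 11710 genes tested were higher and 534 lower. Tyrosine hydroxylase, Th, which catalyses the rate-limiting step of dopamine synthesis, read 8.09, 8.04 and 7.94 in MPTP midbrain and 8.97, 8.92 and 8.64 in saline midbrain. All MPTP values lay below all saline values, and the difference of -0.82 (SE 0.29) had an adjusted p of 0.133. This SE is pooled over the regions, so it does not measure the midbrain spread alone. The SD of Th was 0.08 in MPTP and 0.18 in saline midbrain. It was 0.33 and 0.21 in MPTP and saline striatum, and 0.41 and 0.97 in MPTP and saline cortex. Both cortex means, 4.89 in MPTP and 5.18 in saline, lay below the filter value. The dopamine transporter gene Slc6a3 read 9.03, 9.0 and 9.06 in MPTP and 9.67, 9.38 and 9.15 in saline midbrain, again without overlap, with a difference of -0.37 (SE 0.15, adjusted p = 0.207) that was -0.24 without saline replicate 1. For the vesicular monoamine transporter gene Slc18a2 (-0.23), the dopa decarboxylase gene Ddc (-0.05) and the lineage transcription factor gene Nr4a2 (-0.17) the groups overlapped, with adjusted p of 0.594, 0.913 and 0.753. Aldh1a1, an aldehyde dehydrogenase of ventral nigral neurons, stood at 11.33, 11.28 and 11.35 in MPTP and at 11.18, 11.02 and 11.11 in saline midbrain (0.22, adjusted p = 0.17). The homeobox gene En2 was the list member with the smallest p, with 5.96, 5.84 and 6.20 in MPTP and 5.48, 5.55 and 5.55 in saline midbrain (0.48, adjusted p = 0.0714). For Ret, the receptor for GDNF family growth factors, chosen after its values were seen, the MPTP arrays lay below the saline arrays, with 6.51, 6.55 and 6.65 in MPTP and 6.90, 6.79 and 6.77 in saline midbrain (-0.25, adjusted p = 0.391). Of 27 members on the array 20 were tested, 7 lying higher and 13 lower with a median of -0.05, and Pitx3 was too dim to test at means of 4.17 in MPTP and 4.31 in saline midbrain. In such bulk tissue fewer cells of a type and less RNA per cell cannot be told apart.

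**Figure D2:**
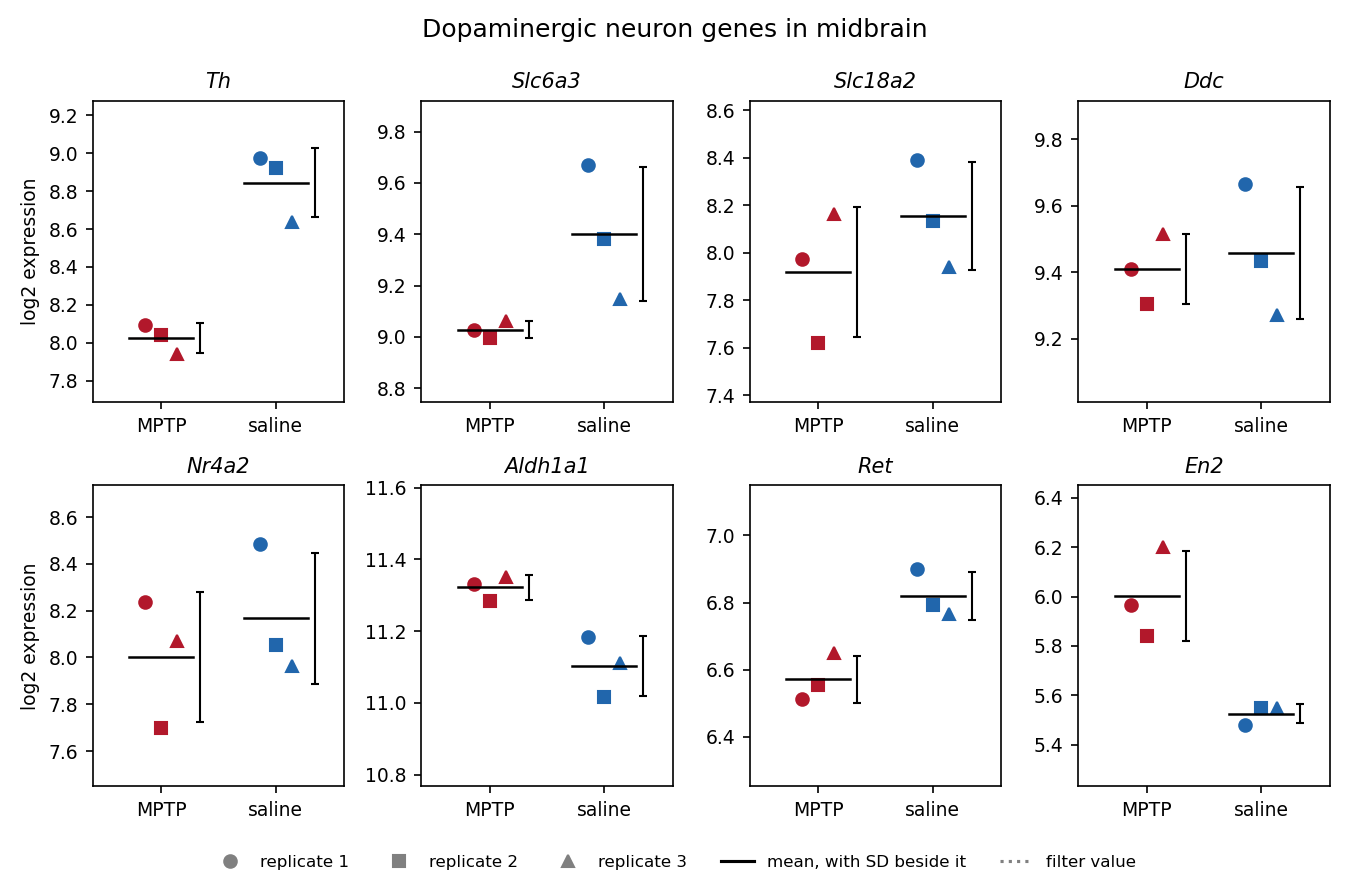
Genes of dopaminergic neurons on the 6 midbrain arrays. Points are log2 expression of each array (MPTP in red, saline in blue, marker shape by replicate), lines are group means with the SD beside them, and the dotted line, where in range, is the filter value. Th and Slc6a3 are lower on all 3 MPTP arrays, the groups overlap for Slc18a2, Ddc and Nr4a2, and no gene shown was called.

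Among acute-phase and IL-6 family genes 4 of 18 rose and none fell, with a list median of 0.16, and among reactive astrocyte genes 4 of 21 rose and none fell, with a median of 0.26 and 20 members above 0. The lists share Lcn2 and Serpina3n. Lcn2, the iron-siderophore binding lipocalin of the acute phase, read 8.49, 4.78 and 8.66 in MPTP midbrain and 3.59, 3.81 and 3.65 in saline midbrain. MPTP replicates 1 and 3 were high, while replicate 2 and every saline array lay below the filter value. Its difference of 3.63 (SE 0.89, adjusted p = 0.0296) is 2.11 when counted from the filter value. Lcn2 averaged 3.03 higher without MPTP replicate 1 and 4.89 higher without MPTP replicate 2, and it was not called without MPTP replicate 1 or 3 or saline replicate 2 or 3. Lrg1, a secreted leucine-rich glycoprotein of the acute phase, was likewise high in MPTP replicates 1 and 3 and below the filter value in replicate 2 and in saline midbrain, at 5.75, 4.25 and 6.09 in MPTP and 3.48, 3.45 and 3.43 in saline midbrain (1.91, SE 0.35, adjusted p = 0.00794), and counted from the filter value it was 0.17, less than its SE. The protease inhibitor gene A2m read 6.95, 6.54 and 6.77 in MPTP and 6.05, 5.92 and 6.13 in saline midbrain, a rise of 0.72 or 1.65-fold (adjusted p = 0.00782). Serpina3n, a serine protease inhibitor of reactive astrocytes, rose by 0.56 (adjusted p = 0.0466).

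The remaining called reactive astrocyte genes were Cd14 and Fkbp5. Cd14, the co-receptor for lipopolysaccharide, read 6.27, 5.35 and 5.80 in MPTP midbrain and 4.87, 4.85 and 4.77 in saline midbrain, with every saline value below the filter value (0.98, or 0.61 from the filter value, adjusted p = 0.0107). Fkbp5, a glucocorticoid-induced co-chaperone, read 7.79, 7.41 and 7.55 in MPTP and 7.04, 6.88 and 7.14 in saline midbrain (0.56, adjusted p = 0.0321). The intermediate filament genes that mark reactive astrocytes did not pass on the probe sets used, and their groups overlapped. Gfap stood at 9.63, 9.82 and 9.60 in MPTP and 9.31, 9.28 and 9.70 in saline midbrain (0.26, adjusted p = 0.387), and Vim at 8.38, 8.54 and 8.38 in MPTP and 8.22, 7.88 and 8.54 in saline midbrain (0.22, adjusted p = 0.407). Further probe sets of both genes gave larger values in part, at 0.44 (unadjusted p = 0.000401) and 0.46 (unadjusted p = 0.00137) for Vim and at 0.46 (unadjusted p = 0.011) and 0.19 for Gfap. In the striatum of the same study Gfap differed by 1.17 and Vim by 1.01, but neither gene was called for a difference in response between midbrain and striatum. Without saline replicate 2, an array singled out after the data were seen, the counts were 2 of 18 for the acute-phase list and 1 of 21 for the reactive astrocyte list.

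Of 21 interferon response genes 3 rose and none fell, and all 3 belong to one family of membrane proteins that restrict virus entry. Ifitm1 read 7.63, 7.55 and 7.97 in MPTP midbrain and 6.47, 6.67 and 6.78 in saline midbrain, a rise of 1.08 (SE 0.17) or 2.11-fold (adjusted p = 0.00239). Ifitm2 read 7.67, 7.14 and 7.66 in MPTP and 6.61, 6.55 and 6.53 in saline midbrain (0.92, adjusted p = 0.0244), and Ifitm3 read 8.71, 8.07 and 8.85 in MPTP and 7.63, 7.45 and 7.81 in saline midbrain (0.91, adjusted p = 0.0129). The groups did not overlap for any of the 3, and MPTP replicate 2 was the lowest MPTP array for each. These genes are closely related in sequence, and how far their probe sets share signal was not tested. The remaining 18 members were not called, and the list median was 0.08. With saline replicate 2 left out Ifitm1 alone was called, at 1.09, and Ifitm2 (0.92) and Ifitm3 (0.83) had adjusted p of 0.0806 and 0.0658. The start regions of the 3 genes are shown because they moved together and because interferon-induced genes often carry the element that interferon-activated factors bind. Each runs from 250 bases before to 50 bases after the RefSeq gene start, 5′ to 3′ on the strand of the gene, in the build GRCm38.p6, with matches to that element (GAAA and GAAA separated by 2 bases, either strand) in capitals.
Ifitm1 (chr7:140967826-140968125, plus strand): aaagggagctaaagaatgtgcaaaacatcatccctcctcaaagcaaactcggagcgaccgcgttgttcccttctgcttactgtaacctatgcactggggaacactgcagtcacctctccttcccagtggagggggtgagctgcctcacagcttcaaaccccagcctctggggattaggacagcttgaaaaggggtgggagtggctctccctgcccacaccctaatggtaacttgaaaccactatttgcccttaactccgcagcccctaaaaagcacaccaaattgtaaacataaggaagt
Ifitm2 (chr7:140955912-140956211, minus strand): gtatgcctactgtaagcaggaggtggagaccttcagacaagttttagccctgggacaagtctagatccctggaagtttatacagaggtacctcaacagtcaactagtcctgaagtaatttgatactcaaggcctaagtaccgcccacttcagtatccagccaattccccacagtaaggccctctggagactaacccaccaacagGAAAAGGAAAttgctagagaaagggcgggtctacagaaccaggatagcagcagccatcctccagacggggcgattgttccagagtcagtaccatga
Ifitm3 (chr7:141010695-141010994, minus strand): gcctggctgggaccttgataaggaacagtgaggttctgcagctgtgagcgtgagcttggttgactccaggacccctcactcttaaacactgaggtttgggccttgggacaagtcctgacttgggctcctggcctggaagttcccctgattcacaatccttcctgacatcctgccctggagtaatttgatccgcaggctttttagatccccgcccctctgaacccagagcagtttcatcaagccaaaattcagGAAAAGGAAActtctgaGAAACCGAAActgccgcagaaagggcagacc

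The window of Ifitm3 held 2 matches, starting at bases 3 and 20 after the start, that of Ifitm2 held 1, starting 46 bases before the start, and that of Ifitm1 held none. Of 32851 mouse promoters of this length 3.44% held a match. The gene with the largest rise and smallest p among the 3, Ifitm1, was thus the one without these letters in this window, and a match describes the sequence only.

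In the microglia list 3 of 25 rose, none fell and 23 lay above 0, with a median of 0.26, and all 3 MPTP arrays lay above all saline arrays for 9 members, or 36% where 11.2% of all genes did. The called members were Fcrls, an Fc receptor-like gene restricted to microglia in the mouse brain, C1qa, a chain of the complement initiator C1q, and the tetraspanin gene Cd53. Fcrls read 7.64, 7.38 and 7.71 in MPTP midbrain and 7.11, 6.74 and 7.17 in saline midbrain (0.57, adjusted p = 0.0139). C1qa read 9.29, 8.90 and 9.37 in MPTP and 8.72, 8.50 and 8.74 in saline midbrain (0.53, adjusted p = 0.022), and Cd53 rose by 0.48 (adjusted p = 0.0341). Saline replicate 2 was the lowest array for all 3, and the classical marker Aif1 did not pass, at 0.22 (adjusted p = 0.488), with overlapping groups.

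Among 12 genes of microglial activation 3 rose and none fell, with a median of 0.26. The lysozyme gene Lyz2 read 7.91, 7.31 and 7.5 in MPTP midbrain and 6.90, 6.34 and 6.93 in saline midbrain, a rise of 0.85 or 1.80-fold (adjusted p = 0.0215). Lyz1, a near-identical copy whose probes may take up the same transcripts, read 8.36, 7.71 and 8.01 in MPTP and 7.31, 6.80 and 7.29 in saline midbrain (0.89, adjusted p = 0.0317). Fcgr2b, the inhibitory receptor for immunoglobulin G, read 6.95, 7.08 and 7.20 in MPTP and 6.42, 6.58 and 6.44 in saline midbrain (0.60, adjusted p = 0.00782). Once saline replicate 2 was left out none of the 25 microglia genes and 1 of the 12 activation genes, Fcgr2b at 0.64, were called, while the medians of the lists were 0.23 and 0.16. Of 12 neutrophil genes on the array none was tested, since no mean over both groups of a region reached the filter value. S100a9, a calcium-binding protein of neutrophils and inflammatory myeloid cells, nonetheless read 5.77, 5.52 and 5.43 in MPTP midbrain and 4.09, 3.89 and 4.29 in saline midbrain, and its partner S100a8 read 5.16, 5.82 and 4.74 in MPTP and 3.83, 3.71 and 4.09 in saline midbrain. For both genes, chosen after their values were seen, the groups did not overlap, and every MPTP value of S100a9 lay above the filter value and every saline value below it. Summed over the list, the level on the log2 scale was 8.14, 8.28 and 8.08 in MPTP and 7.62, 7.80 and 7.75 in saline midbrain. These sums did not overlap, but they include S100a8 and S100a9, so they add no separate evidence. The other 10 members, among them Mpo, Elane and Ltf, lay below the filter value on every midbrain array. The part of such cells in the myeloid and acute-phase rises was not tested. Of 6 tested T cell and other leukocyte genes limma called none, with 1 higher at an unadjusted p under 0.05. Nor was any of 16 meningeal, 6 ependymal, 3 choroid plexus and 2 red cell genes called. At that unadjusted level 2 meningeal genes were lower and 1 red cell gene higher. Of all 11710 genes tested 1416 were higher and 534 lower at that level. The pan-leukocyte gene Ptprc stood at 5.66, 4.86 and 5.64 in MPTP and 4.84, 4.55 and 5.06 in saline midbrain (0.57, adjusted p = 0.138).

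**Figure D3:**
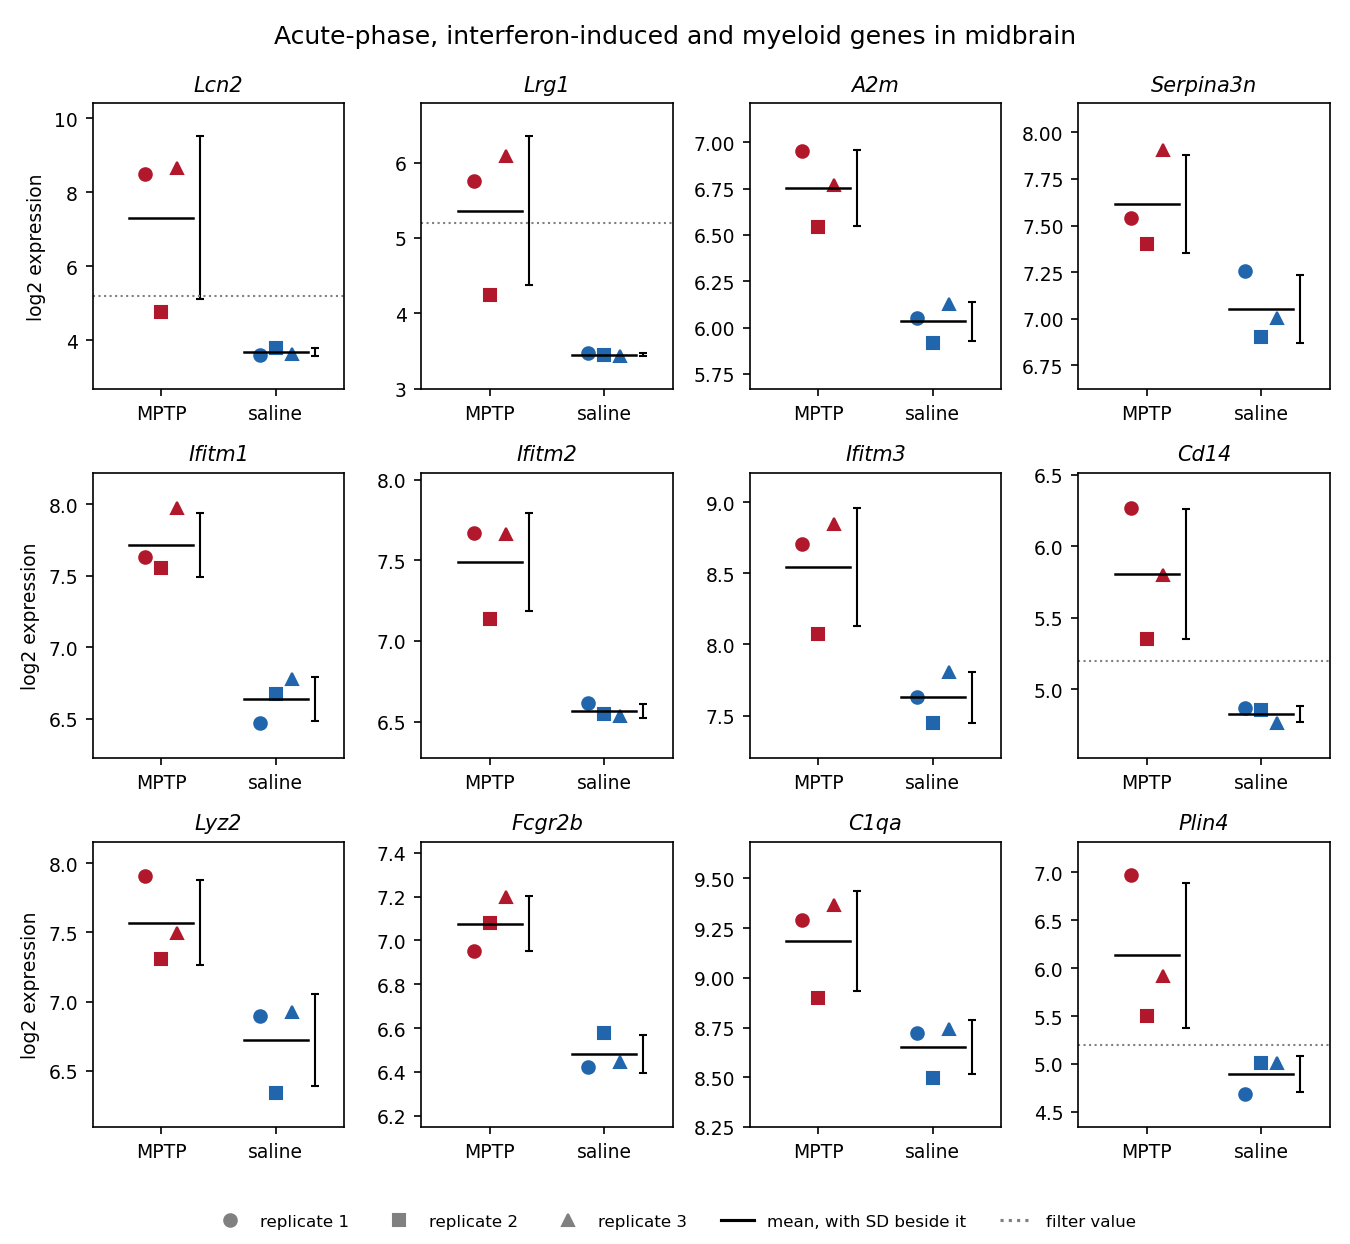
Acute-phase, interferon-induced and myeloid genes, with the lipid droplet gene Plin4, on the 6 midbrain arrays. Points are log2 expression of each array (MPTP in red, saline in blue, marker shape by replicate), lines are group means with the SD beside them, and the dotted line, where in range, is the filter value. All 12 genes shown were called higher and their groups do not overlap, with MPTP replicate 2 below the filter value for Lcn2 and Lrg1.

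Of 21 astrocyte genes 3 rose and none fell, with a median of 0.12; after a second quantile normalization 2 were called higher and 2 lower, with a median of 0.02. They serve glutamate clearance and coupling between astrocytes, namely glutamine synthetase Glul (12.45, 12.37 and 12.49 in MPTP, 12.25, 12.04 and 12.05 in saline midbrain), the glutamate transporter gene Slc1a2 (0.28) and the connexin gene Gja1 (0.44). Of 24 endothelial genes 3 rose and none fell. The endothelial transcription factor gene Sox17 read 6.71, 6.75 and 6.50 in MPTP and 5.98, 5.51 and 6.23 in saline midbrain (0.75, adjusted p = 0.0113, with another probe set at 0.04), the sialomucin gene Podxl rose by 0.63 and the glucose transporter gene Slc2a1 by 0.51. The actin-binding gene Cald1 rose among 14 pericyte and smooth muscle genes (0.55, with other probe sets at 0.37 and -0.16), and the heparan sulfate sulfatase gene Sulf2 among 14 oligodendrocyte precursor genes. Sulf2 was tight within groups at 10.73, 10.75 and 10.74 in MPTP and 10.30, 10.35 and 10.29 in saline midbrain (0.43, adjusted p = 0.00971). Of these genes Sulf2 alone was called without saline replicate 2. Gja1 and Slc1a2 each had another probe set going the other way, at -0.28 (unadjusted p = 0.00344) and -0.21 (unadjusted p = 0.0383), beside others of Gja1 at -0.12 and 0.37 to 0.65 and of Slc1a2 at 0.09 and 0.27. The other probe set of Glul, also above the filter value, gave 0.08 (unadjusted p = 0.496).

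Of 26 genes of lipid droplets and fatty acid handling 1 rose and none fell. Plin4, a coat protein of lipid droplets, read 6.98, 5.50 and 5.92 in MPTP midbrain and 4.68, 5.01 and 5.01 in saline midbrain (1.23, or 0.94 from the filter value, adjusted p = 0.0265), and was at 0.81 and not called without MPTP replicate 1. With Plin4, Fkbp5 and Glul 3 of 29 glucocorticoid response genes rose and none fell, with a median of 0.05, and without saline replicate 2 none was called. Among 22 antioxidant genes the regulator Nfe2l2 (0.44), catalase Cat (0.40) and the glutathione transferase Mgst1 (0.61) rose and none fell, with a median of 0.01 that was -0.05, with 1 gene called lower, after quantile normalization. Of 31 genes of the unfolded protein response Xbp1, its transcription factor, rose by 0.59 (10.53, 10.54 and 10.72 in MPTP, 10.25, 9.72 and 10.05 in saline midbrain) and the chaperone gene Hsp90b1 by 0.41. A second probe set of Hsp90b1 gave 0.03. None of the antioxidant and unfolded protein genes was called without saline replicate 2.

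The genes of smallest p were of other kinds. Mlip, whose product binds lamin in muscle, had the smallest p among the falls, at 3.75, 3.99 and 3.75 in MPTP midbrain and 4.54, 4.39 and 4.70 in saline midbrain (-0.71, adjusted p = 0.00238). All 6 values lay below the filter value, and the gene was tested because it reached 8.77 in saline frontal cortex, so its midbrain difference is not shown to be above background. The kelch protein gene Ivns1abp read 9.84, 9.98 and 10.21 in MPTP and 9.47, 9.35 and 9.34 in saline midbrain (0.62, SE 0.09, adjusted p = 0.00238). Fbxo11, the substrate-binding subunit of a ubiquitin ligase, read 8.15, 8.26 and 8.52 in MPTP and 7.80, 7.38 and 7.56 in saline midbrain, a rise of 0.73. The ubiquitin-conjugating enzyme gene Ube2e1 read 10.26, 10.38 and 10.65 in MPTP and 9.95, 9.48 and 9.59 in saline midbrain, a rise of 0.76 or 1.69-fold. In each of these rises the groups were separate, and MPTP replicate 3 was the highest array. Tspyl1, a nucleosome assembly protein relative, read 9.16, 9.49 and 9.80 in MPTP and 8.88, 8.30 and 8.18 in saline midbrain (1.03, SE 0.16). The transcription factor gene Ebf3 read 8.13, 8.32 and 8.17 in MPTP and 7.54, 7.53 and 7.26 in saline midbrain (0.76), and its group means stayed at 4.04 to 4.21 in the other regions.

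Further genes that kept their call with each array left out were the protocadherin gene Pcdh7 (0.59), the scaffold gene Ranbp9 (0.58), the splicing factor gene Luc7l2 (0.52) and Mthfd2l, an enzyme of mitochondrial folate metabolism (0.74). Mthfd2l read 7.88, 7.78 and 7.82 in MPTP midbrain and 7.27, 7.05 and 6.94 in saline midbrain. The cannabinoid receptor gene Cnr1 rose by 0.62 (9.01, 9.26 and 9.37 in MPTP, 8.74, 8.40 and 8.64 in saline midbrain) and the autophagy gene Becn1 by 0.56 (9.21, 9.31 and 9.46 in MPTP, 9.03, 8.60 and 8.68 in saline midbrain). Both were lost without MPTP replicate 3, at adjusted p of 0.0551 and 0.0832. Several of these genes had another probe set above the filter value that showed little difference, at 0.02 for Tspyl1, 0.05 for Ube2e1, 0.01 and 0.18 for Ebf3, -0.07 for Pcdh7, -0.03 for Mthfd2l, -0.06 and -0.08 for Luc7l2, -0.14 for Cnr1 and -0.04 for Becn1. Of the other probe sets of Ivns1abp above it, one gave 0.39 (unadjusted p = 0.000826) and a dimmer one -0.31 (unadjusted p = 0.0788). Over all 93 called genes selected for naming, 70 of the 88 other probe sets at or above the filter value had the same sign. Of these 41 had an unadjusted p under 0.05, as had 1950 of all 11710 genes tested in either direction. These probe sets were read on the same arrays that chose the genes, so they share any difference between whole arrays.

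Of 23 members of the cholesterol synthesis and uptake list 4 fell and none rose, 19 lay below 0, and the median was -0.17. On the probe sets used, all MPTP arrays lay below all saline arrays for 8 members, or 34.8% where 5.18% of all genes did. Hmgcs1, which makes the HMG-CoA that feeds the pathway, read 10.90, 11.0 and 10.98 in MPTP midbrain and 11.32, 11.23 and 11.25 in saline midbrain (-0.31, SE 0.07, adjusted p = 0.0166). Mvd, the decarboxylase that yields isopentenyl pyrophosphate, read 6.16, 6.48 and 6.18 in MPTP and 6.83, 6.65 and 7.13 in saline midbrain (-0.59, adjusted p = 0.027). Lss, which closes the first sterol ring system, read 6.68, 6.89 and 6.84 in MPTP and 7.20, 7.48 and 7.23 in saline midbrain (-0.50, adjusted p = 0.027). Dhcr7, the enzyme of the last step to cholesterol, read 7.60, 7.96 and 7.71 in MPTP and 8.16, 8.05 and 8.37 in saline midbrain (-0.43, adjusted p = 0.0293). The groups were separate for all 4. Leaving out saline replicate 2, the list again had 4 falls and no rise, but Lss was not among them (-0.41, adjusted p = 0.108), and without MPTP replicate 1 or 3 or saline replicate 3 none of these 4 genes was called. Other probe sets of Hmgcs1 gave -0.37 (unadjusted p = 0.00131), 0.02 and 0.14, that of Mvd gave -0.33 (unadjusted p = 0.025), and a second of Lss gave -0.04. The start regions of Hmgcs1 and Mvd are shown because sterol-regulated genes of this pathway are controlled through sterol regulatory elements beside CCAAT boxes. The window and build are as above, and capitals mark the sterol element TCACNCCAC and the box CCAAT on either strand.
Hmgcs1 (chr13:119690101-119690400, plus strand): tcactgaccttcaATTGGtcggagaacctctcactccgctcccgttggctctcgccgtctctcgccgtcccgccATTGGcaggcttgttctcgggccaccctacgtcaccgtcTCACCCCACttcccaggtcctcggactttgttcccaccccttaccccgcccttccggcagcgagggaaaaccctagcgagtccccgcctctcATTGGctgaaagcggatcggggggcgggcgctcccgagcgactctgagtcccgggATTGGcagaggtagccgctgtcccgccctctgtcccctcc
Mvd (chr8:122443373-122443672, minus strand): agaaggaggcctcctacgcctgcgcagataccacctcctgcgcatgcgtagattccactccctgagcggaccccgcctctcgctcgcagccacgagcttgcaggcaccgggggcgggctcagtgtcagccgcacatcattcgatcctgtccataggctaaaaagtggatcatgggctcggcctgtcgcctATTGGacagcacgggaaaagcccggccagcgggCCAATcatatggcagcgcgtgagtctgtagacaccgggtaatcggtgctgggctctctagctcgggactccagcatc

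The Hmgcs1 window held 1 sterol element, starting 137 bases before the gene start, and 4 CCAAT boxes, and the Mvd window held 2 CCAAT boxes and no match to the sterol element. The element occurred in 1.24% and the box in 37.4% of the 32851 promoters. The Lss window held 1 CCAAT box, and of the 3 promoters listed for Dhcr7 1 held 2 boxes. No match to TCACNCCAC was found in these last windows, which says only that these letters were not there.

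Of 29 oligodendrocyte and myelin genes 3 fell and none rose, 21 lay below 0 and the median was -0.13. Opalin, a membrane glycoprotein of myelinating oligodendrocytes, read 8.87, 9.13 and 8.67 in MPTP midbrain and 9.82, 9.53 and 9.56 in saline midbrain, a fall to a level 1.68-fold lower (-0.74, adjusted p = 0.0103). Ppp1r14a, a phosphatase inhibitor enriched in oligodendrocytes, read 8.73, 9.09 and 8.93 in MPTP and 9.31, 9.39 and 9.58 in saline midbrain (-0.51, adjusted p = 0.0349). The protease inhibitor gene Serpinb1a read 6.56, 7.25 and 6.95 in MPTP and 7.61, 7.30 and 7.55 in saline midbrain (-0.57, adjusted p = 0.0412). The structural myelin gene Mbp was not called and lay the other way, at 13.60, 13.64 and 13.65 in MPTP and 13.59, 13.38 and 13.39 in saline midbrain (0.18, adjusted p = 0.142), while its other probe sets ran from -0.23 to 0.12. Opalin was the called member without saline replicate 2, at -0.80. Outside the list, the proteoglycan-cleaving protease gene Adamts4 read 7.32, 7.44 and 7.43 in MPTP and 7.86, 7.85 and 7.83 in saline midbrain (-0.45, adjusted p = 0.0204). Butyrylcholinesterase, Bche, read 5.39, 5.33 and 5.38 in MPTP and 6.01, 5.99 and 6.37 in saline midbrain (-0.75, adjusted p = 0.00942), and the carbonic anhydrase gene Car4 read 6.69, 6.47 and 6.16 in MPTP and 7.42, 6.92 and 7.18 in saline midbrain (-0.73, adjusted p = 0.0198).

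The largest falls were led by single saline arrays. Among 15 genes of thalamic and midbrain glutamatergic neurons 2 fell and none rose, with a median of -0.34. The G protein regulator gene Rgs16 read 5.41, 5.43 and 5.48 in MPTP midbrain and 7.51, 5.96 and 6.20 in saline midbrain (-1.11, adjusted p = 0.0179). The troponin gene Tnnt1, which marks thalamic neurons, read 6.41, 5.74 and 6.24 in MPTP and 8.0, 6.39 and 6.99 in saline midbrain (-1.0, adjusted p = 0.025), with overlap at 6.41 against 6.39. The hypothalamic peptide precursor gene Pmch, called among 8 hypothalamic genes, read 5.26, 4.86 and 5.19 in MPTP and 7.48, 5.64 and 5.49 in saline midbrain (-1.10, adjusted p = 0.0466), with 2 of the MPTP values below the filter value. Saline replicate 1 was far the highest array for all 3, as it was in the mean level of the glutamatergic list. Without it the differences were -0.64 for Rgs16 and -0.56 for Tnnt1, both called, and -0.46 for Pmch, which was not (adjusted p = 0.0591). Whether the dissections took in different amounts of neighbouring tissue was not tested.

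**Figure D4:**
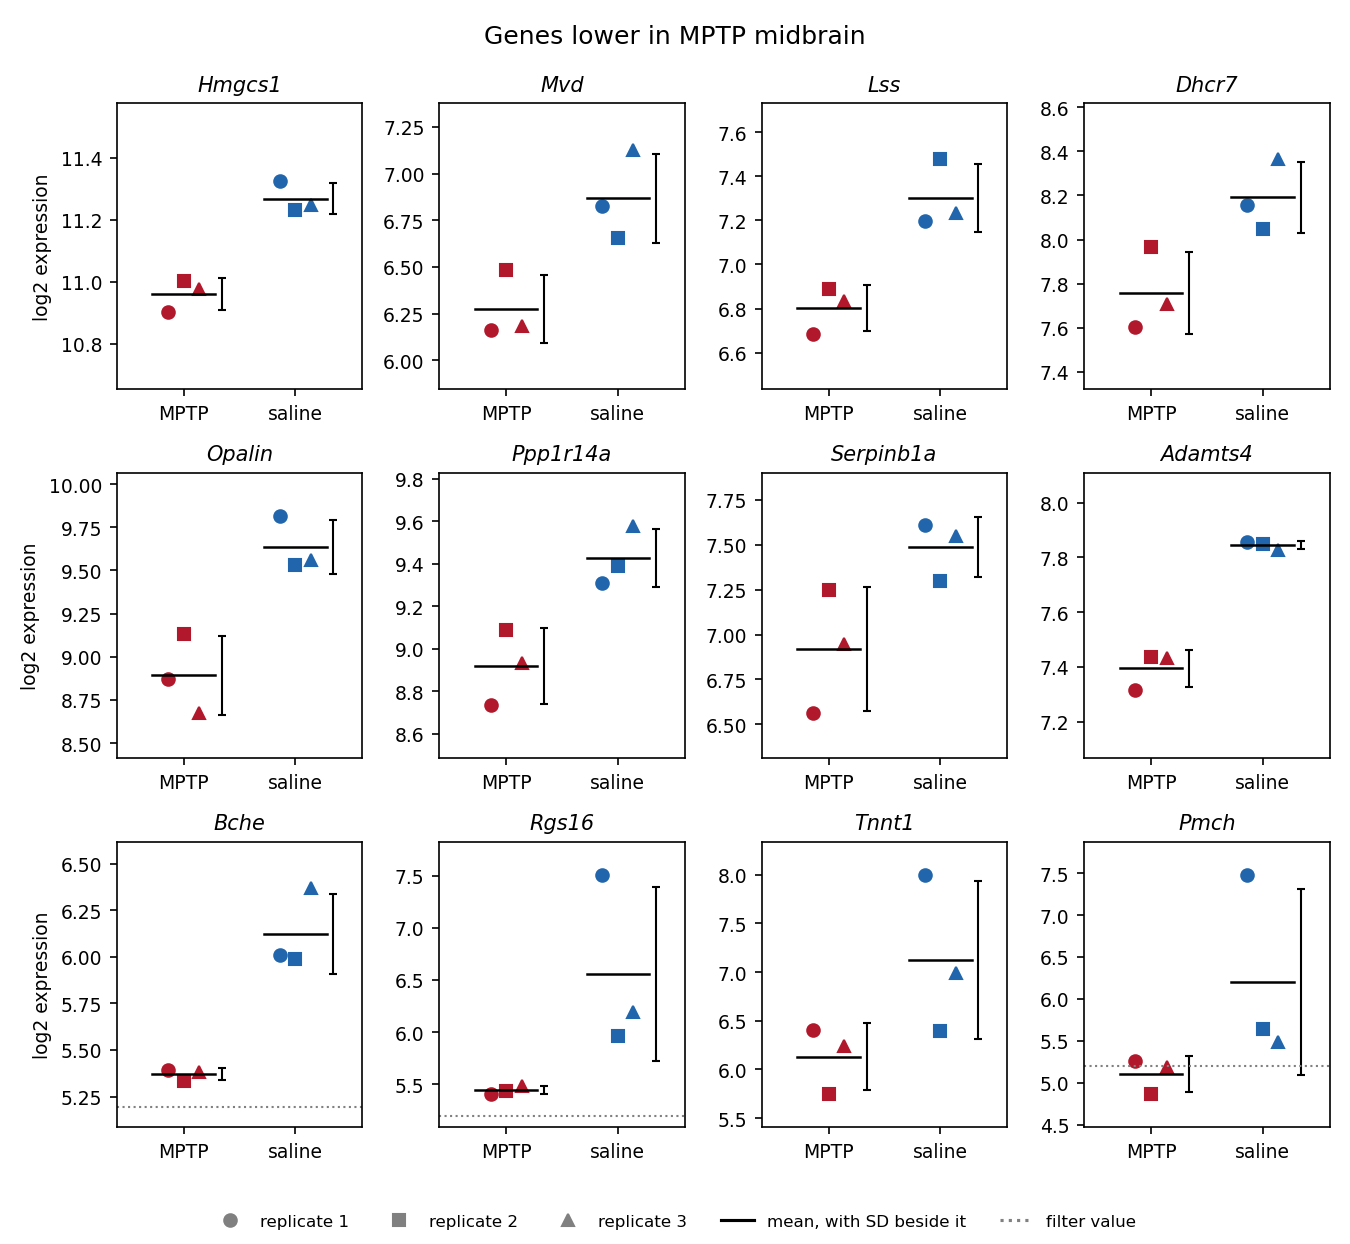
Genes lower in MPTP midbrain: 4 cholesterol synthesis genes, 3 of the oligodendrocyte list, Adamts4 and Bche, and 3 genes of glutamatergic or hypothalamic neurons. Points are log2 expression of each array (MPTP in red, saline in blue, marker shape by replicate), lines are group means with the SD beside them, and the dotted line, where in range, is the filter value. The groups are separate for 11 of the 12 genes and overlap for Tnnt1, and saline replicate 1 stands far above the other arrays for Rgs16, Tnnt1 and Pmch.

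Receptors for inhibitory and excitatory transmitters moved in both directions, with 3 rises and 1 fall among 34. Glrb, the glycine receptor subunit that anchors the receptor at synapses, read 9.92, 10.07 and 10.26 in MPTP midbrain and 9.67, 9.29 and 9.44 in saline midbrain (0.62, SE 0.10, adjusted p = 0.00239), and its second probe set gave 0.54 (unadjusted p = 5.13e-05). The alpha subunit gene Glra1 fell instead, with 4.73, 5.04 and 4.87 in MPTP and 5.60, 5.21 and 6.35 in saline midbrain (-0.84, adjusted p = 0.0209). Every MPTP value of Glra1 lay below the filter value, so the fall is 0.52 counted from it, and without saline replicate 3 the difference was -0.52 and not called. The metabotropic glutamate receptor gene Grm5 rose by 0.42, and the kainate receptor gene Grik3 by 0.83, of which 0.11 lay above the filter value. The GABA-synthesising enzyme gene Gad1 rose among 14 GABAergic genes, at 11.21, 11.31 and 11.45 in MPTP and 11.0, 10.81 and 10.71 in saline midbrain (0.49, adjusted p = 0.0189), with another probe set at 0.06. The receptor list without saline replicate 2 had 1 rise and 3 falls, and Gad1 was not called.

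Immediate early genes, which neuronal activity induces, gave 2 falls and 1 rise among 30, with a median of -0.18. The small GTPase gene Rasd1 read 5.94, 5.70 and 5.77 in MPTP midbrain and 6.86, 6.28 and 6.41 in saline midbrain (-0.71, adjusted p = 0.0103), and Gadd45g fell by 0.50. Egr3 was called higher at 0.56 on a dim probe set, while its other probe set gave -0.39 (unadjusted p = 0.00733), so no direction is given for it. Stmn4, a regulator of microtubules in growing axons, was the called member of 28 axonal injury genes, at 10.38, 10.57 and 10.43 in MPTP and 10.93, 10.75 and 10.76 in saline midbrain (-0.36, adjusted p = 0.0104).

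In the respiratory chain and Parkinson's disease lists at most 1 gene each was called, where 2.54% of all genes were. None of 33 complex I subunits was called, with a median of 0.02, and the smallest p were those of Ndufa9 (0.19, adjusted p = 0.18) and Ndufs8 (0.19, adjusted p = 0.183). Without adjustment 3 complex I subunits were higher and 2 lower at p under 0.05. At that level 1416 of all 11710 genes tested were higher and 534 lower. Of 36 subunits of complexes II to V the ATP synthase gene Atp5pb rose by 0.39 (adjusted p = 0.0209), with another probe set at 0.05, and 32 lay above 0 with a median of 0.09. These directions turned after quantile normalization, with medians of -0.08 for complex I (3 called lower) and -0.03 for complexes II to V (1 called higher, 2 lower). Of 17 tested genes of inherited Parkinson's disease Vps35, a subunit of the retromer that sorts endosomal cargo, rose by 0.36 (10.66, 10.46 and 10.64 in MPTP, 10.38, 10.03 and 10.27 in saline midbrain, adjusted p = 0.0293). Monoamine oxidase B, Maob, stood at 8.72, 8.44 and 8.65 in MPTP and 8.49, 8.29 and 8.22 in saline midbrain (0.27, adjusted p = 0.247). The growth factor gene Pdgfd rose among 21 neurotrophic genes, at 6.02, 5.32 and 6.10 in MPTP and 4.86, 4.70 and 5.05 in saline midbrain, which is 0.62 counted from the filter value. Single rises were also called among 24 p53 and apoptosis genes (Xiap, 0.44), 33 voltage-gated channel genes (Cacnb4, 0.44) and 21 circadian genes (Dbp, 0.36). Of 10 antigen processing genes 2 rose (the chaperones Canx and Calr, 0.32 each). Among all genes tested 2.16% were called higher. None of 31 synaptic vesicle and 24 ribosomal protein genes was called by limma, with 5 members of each higher and none lower at an unadjusted p under 0.05, although 2 ribosomal protein genes were called lower after quantile normalization. Without saline replicate 2, Pdgfd was called and Atp5pb, Vps35, Xiap, Cacnb4, Dbp, Canx and Calr were not.

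**Figure D5:**
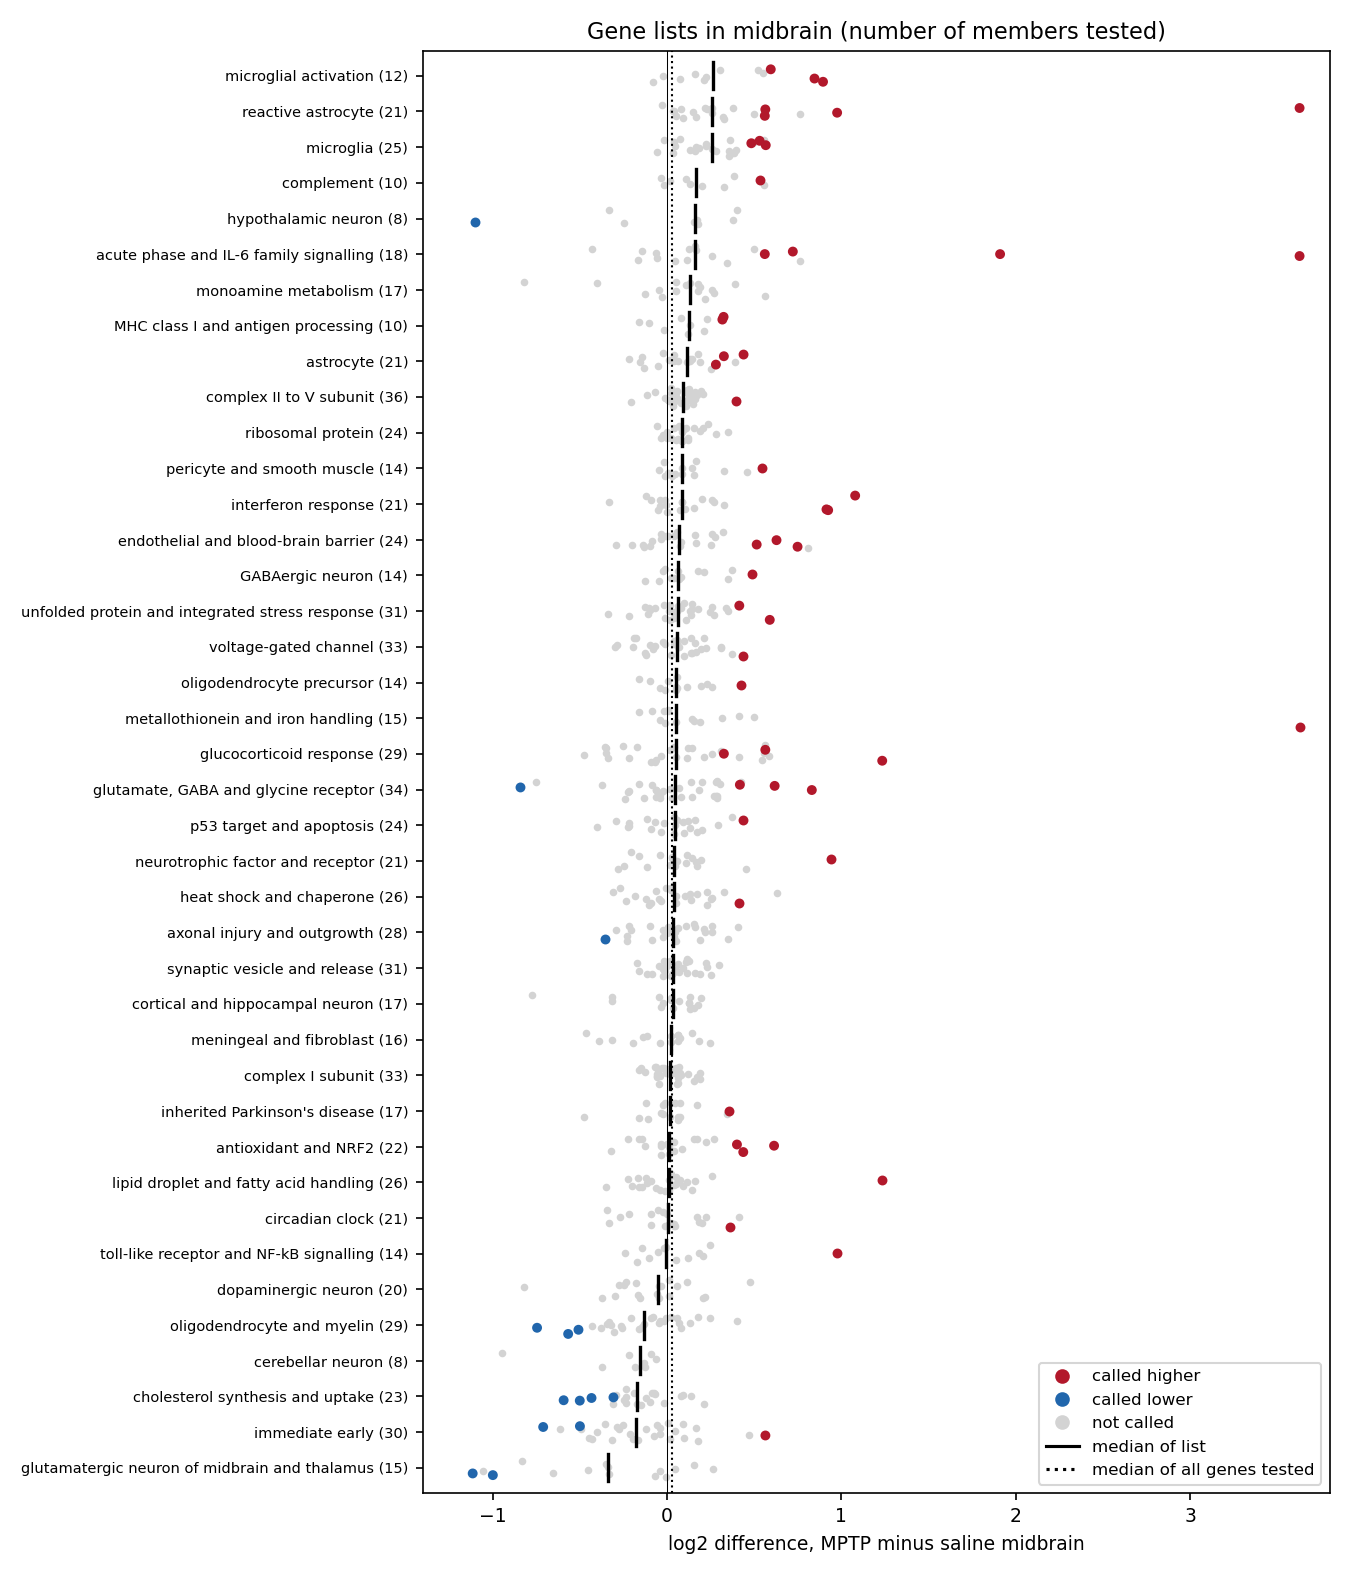
Differences between MPTP and saline midbrain for the members of each list with at least 8 tested genes. Each point is 1 gene, in log2 units, red if called higher, blue if called lower and grey if not called, with the list median as a bar and the median of all genes tested as a dotted line. Inflammatory and glial lists hold red points to the right, with Lcn2 at 3.63, and the cholesterol, oligodendrocyte and glutamatergic neuron lists hold blue points and medians below 0.

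The midbrain response was then compared with that of the other regions by testing the difference between the responses. Against striatum 8 of 11710 genes (0.0683%) were called, all of them with a lower response in midbrain. Adamts4 alone was also called within midbrain, and it fell there (-0.45) and was higher in MPTP striatum (7.69 ± 0.08 in MPTP and 7.09 ± 0.09 in saline striatum, SD, n = 3), a difference between responses of -1.05 (SE 0.14, adjusted p = 0.000576). For the others the midbrain groups lay close together. The small GTPase gene Rras2 averaged 5.30 ± 0.19 in MPTP and 5.29 ± 0.18 in saline midbrain, and its responses differed by -1.78 (adjusted p = 7.82e-06). The scaffold gene Cnksr3 averaged 6.41 ± 0.03 in MPTP and 6.59 ± 0.27 in saline midbrain (difference between responses -1.90, adjusted p = 3.45e-06). The deacetylase gene Sirt2, abundant in oligodendrocytes, read 10.19, 10.32 and 10.22 in MPTP and 10.34, 10.36 and 10.41 in saline midbrain (-0.68, adjusted p = 0.000796). Nfasc, Cemip2 and Fam107b differed by -0.89, -1.24 and -0.86 with midbrain differences of -0.01, 0.11 and -0.15. The uncharacterised gene 9630013A20Rik, named although predicted genes were otherwise passed over, was below the filter value in midbrain, at 3.87 ± 0.13 in MPTP and 3.97 ± 0.05 in saline samples, and averaged 7.24 ± 0.20 in MPTP and 4.23 ± 0.16 in saline striatum.

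Against frontal cortex limma called no gene (0%), with 583 at an unadjusted p under 0.05, where 585.5 are expected by chance. The 3 genes of smallest p were Mlip (-0.76), Ebf3 (0.84) and Glrb (0.67), with adjusted p of 0.271, 0.271 and 0.285. Without saline midbrain replicate 1, 10 genes were called and without replicate 2, 3. The inflammatory rises were not called as differing between regions. Lcn2 differed by 3.63 in midbrain, 2.83 in striatum and 3.34 in cortex, and Lrg1 by 1.91, 1.21 and 1.15. Ifitm1 differed by 1.08, 0.76 and 0.51, and Cd14 by 0.98, 0.65 and 0.48. Limma called Lcn2, Lrg1 and Cd14 neither in striatum (adjusted p = 0.0988, 0.0754 and 0.0813) nor in cortex (0.289, 0.458 and 0.733). It called Ifitm1 in striatum (adjusted p = 0.0221) and not in cortex (0.567). The called midbrain rises had a median of 0.48 in midbrain, 0.28 in striatum and 0.13 in cortex, and the called falls had medians of -0.48, -0.21 and -0.10. The midbrain values chose these genes, so the order of the regions is a description.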

How the data were processed

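Total RNA of frontal cortex, striatum and midbrain was hybridised to 18 Affymetrix mouse arrays, 3 for each of 6 groups of region and treatment. The deposited values are log2 expression per probe set, made by the authors with RMA per the submitters' processing notes (version not given in the sources used here), and span 2.48 to 14.2. Of 45101 probe sets 34958 named 1 gene, and where several did, the one with the highest 18-array mean stood for the gene. The test covered 11710 of 18194 genes, those averaging 5.20 (the median over probe sets) or more in some region. Limma 3.58.1 in R 4.3.3 fitted 6 group means to all 18 arrays, with an intensity trend in eBayes and Benjamini-Hochberg adjustment within each comparison. Differences between regional responses were contrasts of the same fit. No column of another sample was present. On simulated data with independent noise, the fit recovered 97% of midbrain differences of 1 and 58% of those of 0.5. Of 166 calls there 11 were false. The simulation held no shift of whole arrays, so it cannot show how such shifts affect the calls. "From the filter value" means with group means under 5.20 raised to it. The number of arrays limits the precision.

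Members, gene lists and tests were chosen with earlier results of these data known. The genes named were the 30 called rises and 20 called falls of smallest p, the 15 largest of each, up to 6 called members of each list or else the 2 of smallest p, 12 fixed genes (10 of them tested), and the called genes of the comparisons between regions, or the 3 of smallest p where none was called. Predicted genes were passed over. Promoter sequences are from RefSeq, GRCm38.p6. The alternatives were other filters, normalization, probe set rules, variance models, blocks and leaving out each array.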

Additional observations from a re-analysis of the deposited data

Results flagged for a closer look

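In 8 genes the MPTP response differed between midbrain and striatum by the test of that difference in limma (adjusted p under 0.05), the midbrain response being the lower in each. The differences in log2 response were -3.10 for 9630013A20Rik, -1.90 for Cnksr3, -1.78 for Rras2, -1.24 for Cemip2, -1.05 for Adamts4, -0.89 for Nfasc, -0.86 for Fam107b and -0.68 for Sirt2. Groups of 3 arrays were too small for a test of single outlying arrays.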

How the results depend on the processing

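Of the 298 genes called in midbrain, with 253 higher and 45 lower, the count was 728 (403 higher, 325 lower) after a second quantile normalization, 826 (523 higher, 303 lower) with array weights, 745 (560 higher, 185 lower) with each array's interquartile range as covariate, 153 without the intensity trend and 68 when a gene's probe sets were averaged. It stayed within 1.5 times under the other filters, median centring, robust variances, midbrain arrays alone and an animal block. Leaving out 1 midbrain array gave 12 to 957 calls. A replicate block gave 420 calls, 333 higher and 87 lower; equal numbers correlated at 0.009, 0.143 and -0.119 between treatments, so the numbers were not taken to pair the samples. The labels do not link regions by animal. Between midbrain and striatum equal numbers correlated at 0.117 to 0.184 in MPTP and -0.231 to 0.0611 in saline samples. Between midbrain and cortex they correlated at 0.0273 to 0.165 in MPTP and 0.224 to 0.34 in saline samples. Unequal numbers correlated at -0.171 to 0.014 and -0.102 to 0.251 between midbrain and striatum, in MPTP and saline samples. Between midbrain and cortex unequal numbers correlated at -0.201 to 0.0818 and -0.271 to 0.0573, in the same order. With treatment and number as a random block 303 genes were called in midbrain and 8 against striatum. Against striatum the 8 calls became 3 at the stricter filter, 22 after quantile normalization, 23 with array weights and 20 with the covariate, and 7 to 14 with 1 array left out. Against cortex there was 1 call with array weights, and 0 to 10 with 1 array left out. Becn1 changed direction when its probe sets were averaged, to -0.056. The cause of these changes was not tested. Values below the filter value bound a difference rather than measure it.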
